A study of Homo sapiens with 12 samples.

Results

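A set of 8 genes known for roles in neurons and in the guidance of axons were followed in a human B cell lymphoma line: ROBO1, SEMA6A, SEMA3F, LRRN3, NCAM1, RTN4R, DLGAP1 and VGF. They are 8 of the 60675 genes in the deposited table, of which 15112 had enough reads to be tested, and all 8 were among those tested. SEMA6A passed the filter on low counts only through the libraries of Y691F cells with IgM. The 8 genes were picked by name because measured values of these same libraries showed a higher level, or a larger rise with IgM, in Y691F cells, and the rule gave no numeric threshold. Their levels in Y691F against WT cells, their responses to IgM in both and the difference between these responses are therefore given as descriptions with no test, the response of WT cells included, since a larger rise in Y691F cells is judged against it.

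The cells were U-2932, a line derived from diffuse large B cell lymphoma, and every group stably expressed a form of Roquin2, either with the Y691F substitution or wild type (WT). Roquin2 is an RNA-binding protein encoded by RC3H2. The 4 groups were Y691F cells with IgM, Y691F cells left untreated, WT cells with IgM and WT cells left untreated, with 3 libraries in each. IgM stands for F(ab')2-IgM, an antibody fragment that engages the B cell receptor, given at 10 µg/ml for 12 h. The series text calls the replicates of each condition independent biological ones; whether each Roquin2 form was held in 1 or in several clones is not stated by the labels. Cells without an introduced Roquin2 were not analysed here.

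Slit and semaphorin proteins are secreted or membrane-bound cues that repel or attract growing axons, and they act through Robo and plexin receptors on the growth cone. The Nogo receptor halts axon growth at myelin, NCAM1 holds neural cells together, DLGAP1 is a scaffold under the synapse and VGF is a precursor of secreted neuropeptides. Several of these proteins are also made outside the nervous system, where semaphorins and NCAM1 are studied on immune cells. Engagement of the B cell receptor raises calcium and activates kinases, after which transcription factors such as NFAT, NF-kB, EGR1 and CREB act on their target genes.

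The libraries held 16465393 to 21478790 reads counted in genes. Levels are given as CPM, read counts scaled to a common library total adjusted by TMM, the trimmed mean of M-values normalisation of edgeR. RC3H2 averaged 206 ± 1.79 CPM in Y691F cells with IgM and 209 ± 0.880 CPM in untreated Y691F cells, against 121 ± 1.80 CPM in WT cells with IgM and 111 ± 1.08 CPM in untreated WT cells (SD, n = 3 each). The amount of RC3H2 RNA thus differed between the lines along with the substitution, and the 2 cannot be told apart. All 6 B cell markers were tested, and their summed level was 2130 to 2180 CPM in Y691F cells with IgM, 2830 to 2850 CPM in untreated Y691F cells, 2200 to 2240 CPM in WT cells with IgM and 3230 to 3280 CPM in untreated WT cells. Neurons are not among the labelled cells, and 8 of 14 neuron markers, SNAP25, STMN2, RBFOX3, NEFL, NEFM, NEFH, GAP43 and ELAVL4, had no read in any of the 12 libraries. The other neuron markers, mostly MAP2, summed to 3.49 to 3.80 CPM in Y691F cells with IgM, 12.1 to 13.6 CPM in untreated Y691F cells, 2.92 to 3.65 CPM in WT cells with IgM and 15.9 to 17.4 CPM in untreated WT cells. Of 7 glia markers 4 had no read in any library. The rest, nearly all MBP, summed to 16 to 17.9 CPM in Y691F cells with IgM and 34.4 to 37.3 CPM in untreated Y691F cells. In WT cells they summed to 18.2 to 20.1 CPM with IgM and 33.3 to 34.1 CPM untreated.

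The bases just upstream of a gene's start are shown for VGF, RTN4R and ROBO1, in which none of the 4 groups overlapped, and for LRRN3, a member with 2 to 6 reads in each WT library and 30 to 144 in each Y691F library. The sequences are from RefSeq on GRCh38.p14, 250 bases ending at the start site, written 5′ to 3′ on the strand of the gene. A RefSeq start can differ from the outer end of the gene in the deposited table. That of RTN4R lies inside its span there, 20241415-20283246. VGF is taken from chr7:101165570-101165819 on the minus strand, RTN4R from chr22:20268319-20268568 on the minus strand, LRRN3 from chr7:111090877-111091126 on the plus strand and ROBO1 from chr3:79767999-79768248 on the minus strand. Capitals mark matches, on either strand, to the NFAT core GGAAA, the EGR core GCGTGGG and the CRE core TGACG.
VGF: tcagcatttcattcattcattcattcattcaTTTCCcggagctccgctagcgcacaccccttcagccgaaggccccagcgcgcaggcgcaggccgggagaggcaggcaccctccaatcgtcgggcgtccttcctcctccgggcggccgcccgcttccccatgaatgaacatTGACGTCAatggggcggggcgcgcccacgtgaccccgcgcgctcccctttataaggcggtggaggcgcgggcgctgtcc
RTN4R: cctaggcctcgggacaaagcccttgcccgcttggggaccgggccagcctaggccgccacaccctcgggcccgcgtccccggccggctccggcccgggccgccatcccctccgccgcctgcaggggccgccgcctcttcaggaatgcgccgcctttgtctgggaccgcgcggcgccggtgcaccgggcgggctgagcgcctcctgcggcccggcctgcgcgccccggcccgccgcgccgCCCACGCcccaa
LRRN3: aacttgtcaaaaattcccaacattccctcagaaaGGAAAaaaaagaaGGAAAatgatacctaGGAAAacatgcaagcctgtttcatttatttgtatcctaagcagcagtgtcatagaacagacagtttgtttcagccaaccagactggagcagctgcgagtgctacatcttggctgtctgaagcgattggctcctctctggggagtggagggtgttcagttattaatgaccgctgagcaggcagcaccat
ROBO1: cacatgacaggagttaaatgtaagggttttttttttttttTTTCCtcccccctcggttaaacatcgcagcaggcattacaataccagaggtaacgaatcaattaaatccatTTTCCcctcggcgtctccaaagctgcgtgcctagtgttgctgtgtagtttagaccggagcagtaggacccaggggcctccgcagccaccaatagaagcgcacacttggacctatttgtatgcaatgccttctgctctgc
The VGF sequence held 2 overlapping CRE cores that together form the palindrome TGACGTCA, at -79 to -72 from the start. The palindrome was looked for after the sequence had been seen and was held by 1.65% of the 35116 windows of this length, while the core was held by 21.2%. In rat neural cells this element of the Vgf promoter is known to bind CREB. RTN4R held an EGR core at -12 to -6, a motif found in 6.19% of windows. LRRN3 held 3 NFAT cores within -216 to -184, and ROBO1 held 2 in the window shown and 4 in the window of its other RefSeq start. VGF held an NFAT core as well, at -219 to -215. The NFAT core was found in 55.6% of windows, so its presence is the usual case. Among the other members, the first of 3 SEMA3F windows held the NF-kB motif (GGGA, any 4 bases, CC) at -108 to -99, as did 22.6% of windows. The third SEMA3F window held 2 NFAT cores, and 1 of 2 DLGAP1 windows held an NFAT core. No window of the members matched the AP-1 motif TGANTCA, held by 6.57% of windows. GC boxes (GGGCGG, held by 42.6% of windows and not in capitals) numbered 12 in the first SEMA3F window, 2 in the second, 3 in VGF and 2 in RTN4R. In the first SEMA3F window 2 of them overlapped the NF-kB motif. RefSeq windows for NCAM1 and SEMA6A were not used here. A match describes the letters and was not tested as a binding site.

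In Y691F cells with IgM all 8 genes were above WT cells with IgM in every library, which the way they were chosen favours. Among untreated cells 4 were above, 2 were below and 2 overlapped. These counts only describe the 8 genes, since the share of all tested genes whose groups do not overlap is not given here. Per length, in the RPKM values that the authors deposited, VGF averaged 86.1 in Y691F cells with IgM and 40.9 in WT cells with IgM, and it stood at percentile 97.4 of the tested genes in the Y691F cells. The other 7 averaged 0.146 to 1.44 RPKM in Y691F cells with IgM, at percentiles 7.82 to 36.9, below the median of 2.82 RPKM over the tested genes. Summed over those 7 genes, the level was 32.8 to 34.6 CPM in Y691F cells with IgM and 20.1 to 21.5 CPM in untreated Y691F cells, against 6.53 to 7 CPM in WT cells with IgM and 6.90 to 7.86 CPM in untreated WT cells. ROBO1 alone averaged 10.3 CPM in Y691F cells with IgM and 15 CPM in untreated Y691F cells, most of the sum in the latter. It averaged 0.961 CPM in WT cells with IgM and 3.65 CPM in untreated WT cells. Of all tested genes, 21.9% were called higher and 20.2% lower in Y691F than in WT cells with IgM, and 15.1% were called higher and 16.1% lower among untreated cells. Which direction held more calls depended on the scaling: with library totals alone 3079 genes were higher and 3352 lower with IgM, against 3305 and 3057 with TMM, and 2587 were higher and 2045 lower among untreated cells, against 2279 and 2437 with TMM. Calls were made by edgeR's quasi-likelihood test at a Benjamini-Hochberg adjusted p under 0.05 over all 15112 genes. These shares are printed as background only, since the same comparisons chose the 8 genes. In bulk RNA, more cells with a transcript and more RNA per cell cannot be told apart.

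**Figure D1:**
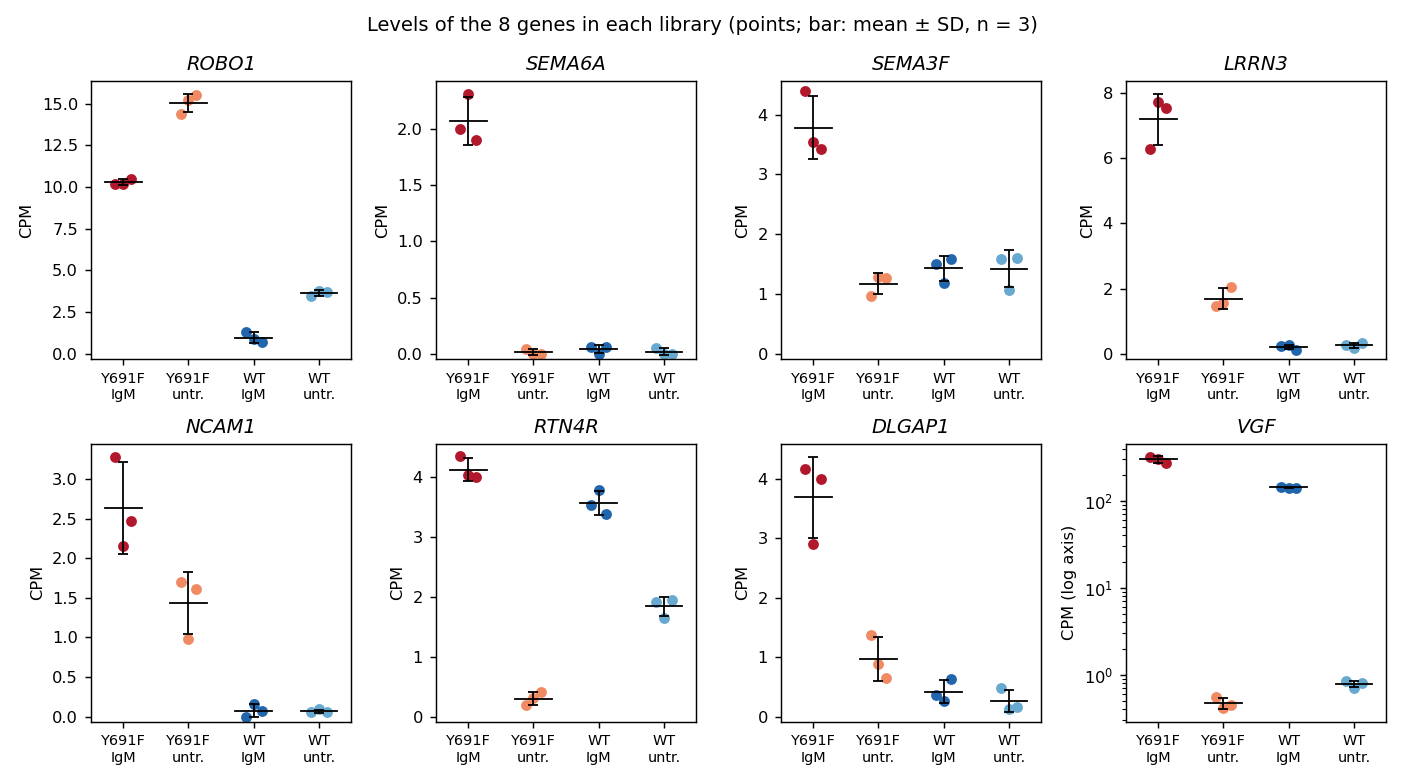
Level of each of the 8 genes in each library (points; CPM, on a log axis for VGF and a linear one for the others) with the group mean ± SD (bars, n = 3), for Y691F cells with IgM, untreated Y691F cells, WT cells with IgM and untreated WT cells. VGF spans from below 1 CPM in untreated cells to 275 to 324 CPM in Y691F cells with IgM, ROBO1 is highest in untreated Y691F cells, and SEMA6A is near 0 outside Y691F cells with IgM.

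With IgM, VGF and RTN4R were higher and ROBO1 lower in every library of WT cells, and the other 5 genes overlapped between treated and untreated WT cells. SEMA6A, LRRN3, NCAM1 and DLGAP1 had at most 10 reads in any WT library. Of all tested genes, 38.4% were called higher and 38.5% lower with IgM in WT cells. Those shares count calls by the test, while the split of the members counts groups that do not overlap. The share of all tested genes whose treated and untreated WT groups do not overlap is not given here. The split therefore only describes the members, and whether it is unusual was not tested.

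VGF, the secreted neuropeptide precursor, lies on the minus strand of chromosome 7 at 101162509-101165593 (GRCh38; ENSG00000128564), and 87.6% of its 3.08 kb span is exonic. Its levels were 324, 303 and 275 CPM in Y691F cells with IgM and 0.552, 0.414 and 0.453 CPM in untreated Y691F cells, against 145, 142 and 141 CPM in WT cells with IgM and 0.848, 0.712 and 0.803 CPM in untreated WT cells. These rested on 4346 to 5833 reads per library in Y691F cells with IgM and 2217 to 2624 in WT cells with IgM, but on only 8 to 16 in the untreated libraries. The 4 groups did not overlap. With IgM the Y691F libraries were above the WT libraries, and without it they were below. In WT cells the level with IgM was 181-fold that of untreated cells (log2 7.50 ± 0.0912 SE), the 23rd highest log2 fold change of the 15112 tested genes. In Y691F cells its level with IgM was 623-fold that of untreated cells (log2 9.28 ± 0.0863 SE). Both SEs are derived from the test statistic and are too small here, as the untreated levels rest on 8 to 16 reads per library. The same holds below for other large fold changes that rest on few reads in 1 group. Y691F cells had a level 2.11-fold that of WT cells with IgM (log2 1.08 ± 0.0360 SE) and 1.64-fold lower than WT cells when untreated (log2 -0.709 ± 0.344 SE). The log2 response was thus greater by 1.79 ± 0.347 (SE) in Y691F cells, a sum of a higher level with IgM and a lower one without. No annotated gene overlapped VGF.

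SEMA3F is a secreted semaphorin that repels axons through neuropilins and plexins, on chromosome 3 at 50155045-50189075, plus strand (ENSG00000001617). It was measured at 4.39, 3.54 and 3.42 CPM in Y691F cells with IgM and 0.966, 1.29 and 1.26 CPM in untreated Y691F cells, against 1.5, 1.19 and 1.59 CPM in WT cells with IgM and 1.59, 1.07 and 1.61 CPM in untreated WT cells. The 3 libraries of Y691F cells with IgM stood above the other 9, which overlapped one another. In WT cells the log2 fold change with IgM was 0.0184 ± 0.24 (SE), and its sign turned with the scaling of the libraries. In Y691F cells the level with IgM was 3.24-fold that of untreated cells (log2 1.70 ± 0.195 SE). Y691F cells had 2.67-fold the level of WT cells with IgM, and among untreated cells the log2 difference was -0.259 ± 0.240 (SE).

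SEMA6A, a membrane-bound semaphorin that binds A-type plexins, lies on chromosome 5 at 116443616-116574934, minus strand (ENSG00000092421). It had 36, 43 and 30 reads in Y691F cells with IgM and 1, 0 and 0 reads in untreated Y691F cells, against 1, 0 and 1 reads in WT cells with IgM and 1, 0 and 0 reads in untreated WT cells. In Y691F cells with IgM these reads came to 2.00, 2.31 and 1.90 CPM. It was detected in more than 1 read per library only there. Over the summed reads, 109 against 2, the level in Y691F cells with IgM was 52.9 times that in WT cells with IgM, with an exact 95% interval of 14.3 to 442.6 that covers counting error only. The ratio moved with each of the WT libraries with IgM: it was 71.1 (12.5 to 2835) without replicate 1, 33.7 (9.10 to 281.6) without replicate 2 and 73.3 (12.9 to 2920) without replicate 3. Against the 1 read of untreated Y691F cells the ratio was 127 (22.3 to 5049). WT cells had 2 reads with IgM against 1 without, too few for a fold change. The antisense gene SEMA6A-AS1 had 27 reads in Y691F cells with IgM, 37 in untreated Y691F cells, 38 in WT cells with IgM and 29 in untreated WT cells, and was not called between Y691F and WT cells with IgM (log2 -0.53, adjusted p = 0.275).

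ROBO1, the receptor for Slit proteins, spans 1170 kb on the minus strand of chromosome 3 at 78597240-79767815 (ENSG00000169855), of which 0.929% is exonic. Its levels were 10.2, 10.2 and 10.5 CPM in Y691F cells with IgM and 14.4, 15.2 and 15.5 CPM in untreated Y691F cells, against 1.32, 0.864 and 0.701 CPM in WT cells with IgM and 3.44, 3.78 and 3.73 CPM in untreated WT cells. No groups overlapped, and both Y691F groups were above both WT groups. In WT cells the level with IgM was 3.78-fold lower than without (log2 -1.92 ± 0.201 SE). In Y691F cells it was 1.46-fold lower with IgM (log2 -0.546 ± 0.0854 SE). Y691F cells had 10.6-fold the level of WT cells with IgM (log2 3.41 ± 0.162 SE) and 4.09-fold among untreated cells (log2 2.03 ± 0.104 SE). ROBO1 was the only one of the 8 genes that was lower with IgM than without it in Y691F cells in every library. It was thus not a gene with a larger rise: its log2 response was higher by 1.37 ± 0.226 (SE) in Y691F cells, where the level with IgM lay closer to that without.

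RTN4R encodes the Nogo receptor, a leucine-rich repeat protein anchored in the membrane, on chromosome 22 at 20241415-20283246, minus strand (ENSG00000040608). It was measured at 4.34, 4.02 and 3.99 CPM in Y691F cells with IgM and 0.184, 0.311 and 0.403 CPM in untreated Y691F cells, against 3.53, 3.78 and 3.38 CPM in WT cells with IgM and 1.91, 1.65 and 1.95 CPM in untreated WT cells. The groups did not overlap, but the 2 groups with IgM were close, and the untreated Y691F libraries, with 4, 6 and 8 reads, were the lowest of all. In WT cells the level with IgM was 1.96-fold that of untreated cells (log2 0.969 ± 0.177 SE). In Y691F cells the level with IgM was 13.7-fold that of untreated cells (log2 3.77 ± 0.253 SE). Y691F cells were 1.15-fold above WT cells with IgM (log2 0.205 ± 0.151 SE) and were 6.05-fold below them when untreated (log2 -2.60 ± 0.302 SE). The difference between the responses, log2 2.80 ± 0.342 (SE), thus lay mostly in the untreated cells.

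**Figure D2:**
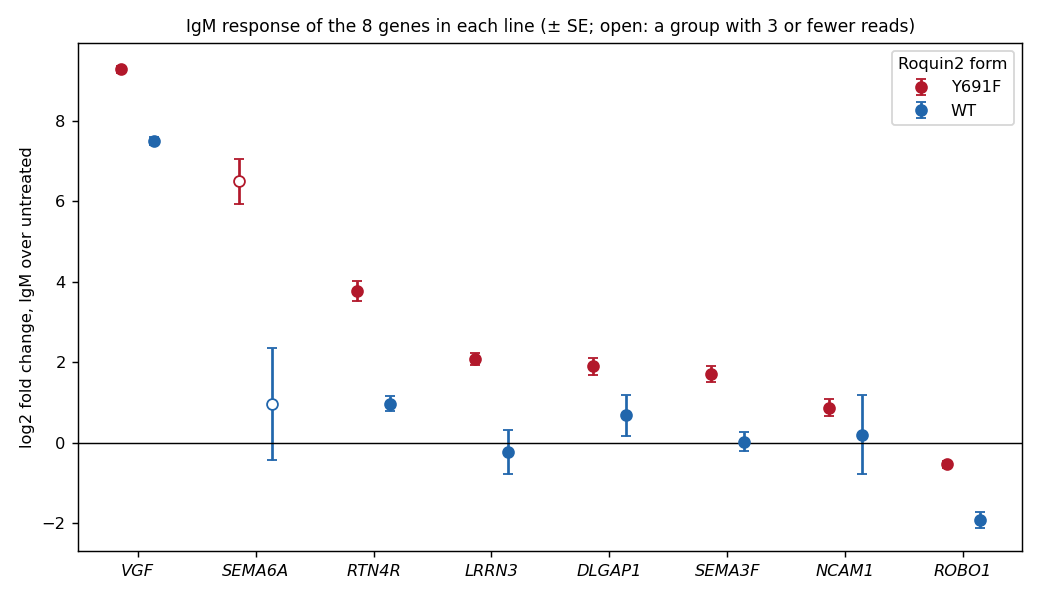
Log2 fold change with IgM (IgM over untreated) of each of the 8 genes in Y691F and in WT cells, with bars of 1 SE from the fit over 12 libraries. The SE is derived from the test statistic and is too small for large fold changes that rest on few reads in 1 group, such as those of VGF. Open points mark SEMA6A, where a group held 3 reads or fewer and the fitted value depends on the prior count. VGF lies at 9.28 in Y691F and 7.50 in WT cells, and ROBO1 lies below 0 in both, at -0.546 and -1.92.

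LRRN3, a leucine-rich repeat protein of neuronal membranes, lies on the plus strand of chromosome 7 at 111091006-111125454 (ENSG00000173114), inside the span of IMMP2L, a mitochondrial peptidase gene on the opposite strand. Its levels were 6.28, 7.72 and 7.54 CPM in Y691F cells with IgM and 1.47, 1.55 and 2.06 CPM in untreated Y691F cells, against 0.239, 0.270 and 0.128 CPM in WT cells with IgM and 0.265, 0.178 and 0.344 CPM in untreated WT cells. WT libraries held 2 to 6 reads each and overlapped between treatments, while both Y691F groups stood apart above them. In WT cells the log2 fold change with IgM was -0.234 ± 0.557 (SE). In Y691F cells the level with IgM was 4.23-fold that of untreated cells (log2 2.08 ± 0.156 SE). Y691F cells had 32.2-fold the level of WT cells with IgM (log2 5.01 ± 0.256 SE) and 6.48-fold among untreated cells (log2 2.70 ± 0.327 SE). IMMP2L averaged 9.06 ± 0.658 CPM in Y691F cells with IgM and 7.08 ± 0.988 CPM in WT cells with IgM (SD, n = 3 each), a log2 difference of 0.35 (adjusted p = 0.0089) that was lost without Y691F replicate 2 with IgM (adjusted p = 0.0577) or without WT replicate 3 with IgM (adjusted p = 0.0561).

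NCAM1 (CD56), an adhesion molecule of the immunoglobulin superfamily on neurons and natural killer cells, lies on chromosome 11 at 112961247-113278436, plus strand (ENSG00000149294). It had 59, 40 and 39 reads in Y691F cells with IgM and 37, 19 and 32 reads in untreated Y691F cells, against 0, 3 and 1 reads in WT cells with IgM and 1, 2 and 1 reads in untreated WT cells. The mean levels were 2.63 ± 0.584 CPM and 1.43 ± 0.391 CPM in Y691F cells with IgM and untreated, against 0.0752 ± 0.0816 CPM and 0.0665 ± 0.0196 CPM in WT cells with IgM and untreated (SD, n = 3 each). Both Y691F groups were above all WT libraries in either treatment, and the 2 WT groups overlapped. Y691F cells had 31.0-fold the level of WT cells with IgM (log2 4.95 ± 0.427 SE). This size rests on 4 reads in the WT cells, 3 of them in replicate 2: without that library the ratio of summed reads was 85.3, with an exact 95% interval of 15.1 to 3392. Among untreated cells the level was 19.4-fold that of WT cells (log2 4.28 ± 0.477 SE). In Y691F cells the level with IgM was 1.82-fold that of untreated cells (log2 0.864 ± 0.215 SE), and in WT cells the log2 fold change was 0.19 ± 0.98 (SE).

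Among markers of T and natural killer cells, only PRF1 and GZMB were raised in Y691F cells with IgM. GZMB had 29 reads there, against 1 in untreated Y691F cells, 2 in WT cells with IgM and 0 in untreated WT cells. CD3E had more reads in untreated Y691F and WT cells (16 and 11) than in those with IgM (5 and 3). Of 12 such markers 1 was tested, and 7 had no read in any library: CD3D, CD2, KLRF1, NKG7, GNLY, NCR1 and GZMA. The 12 summed to 2.47 to 2.84 CPM in Y691F cells with IgM, 0.155 to 0.554 CPM in untreated Y691F cells, 0.120 to 0.446 CPM in WT cells with IgM and 0.106 to 0.459 CPM in untreated WT cells. Most of the sum in Y691F cells with IgM was PRF1, which encodes perforin, at 1.90 ± 0.132 CPM (SD, n = 3), where it had 100 reads in all. PRF1 also had 8 reads in WT cells with IgM, against 0 in untreated WT cells. Untreated Y691F cells, in which NCAM1 averaged 1.43 CPM, had no PRF1 read, and their part in the NCAM1 level was not tested. Plasma cell markers, all 7 tested, summed to 1630 to 1650 CPM in Y691F cells with IgM, 1290 to 1300 CPM in untreated Y691F cells, 1410 to 1420 CPM in WT cells with IgM and 926 to 966 CPM in untreated WT cells. The largest part was IRF4, at 848 CPM in Y691F cells with IgM and 569 CPM in untreated Y691F cells. In Y691F cells IRF4, XBP1 and PRDM1 averaged higher with IgM than without it, and TNFRSF17, SDC1, MZB1 and JCHAIN averaged lower.

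DLGAP1, a scaffold protein that binds PSD-95 beneath excitatory synapses, spans 959 kb of chromosome 18 at 3496032-4455335, minus strand (ENSG00000170579), of which 1.26% is exonic. Its levels were 4.17, 2.90 and 3.99 CPM in Y691F cells with IgM and 1.38, 0.880 and 0.655 CPM in untreated Y691F cells, against 0.359, 0.270 and 0.638 CPM in WT cells with IgM and 0.477, 0.134 and 0.172 CPM in untreated WT cells. Both Y691F groups stood above the WT libraries, which overlapped between treatments. Y691F cells had 8.76-fold the level of WT cells with IgM (log2 3.13 ± 0.284 SE) and 3.78-fold among untreated cells (log2 1.92 ± 0.402 SE). In Y691F cells the level with IgM was 3.71-fold that of untreated cells (log2 1.89 ± 0.221 SE). In WT cells the log2 fold change with IgM was 0.679 ± 0.514 (SE). Of the 15 reads of untreated WT cells 9 lay in replicate 1. Without it the log2 fold change with IgM in WT cells became 1.42, the difference among untreated cells became log2 2.66 and the difference between the responses became log2 0.474, against 1.21 ± 0.596 (SE) with all libraries.

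The span of DLGAP1 overlaps 13 annotated genes, 9 of them on the opposite strand. The higher levels in Y691F cells were shared by the antisense genes DLGAP1-AS1 and DLGAP1-AS2. The opposite-strand pseudogene RP11-710M11.1 was not called in Y691F against WT cells, with IgM (log2 -0.102, adjusted p = 0.878) or untreated (log2 0.359, adjusted p = 0.556). DLGAP1-AS1 averaged 13.6 ± 1.32 CPM in Y691F cells with IgM and 7.70 ± 0.385 CPM in untreated Y691F cells, against 4.27 ± 0.328 CPM in WT cells with IgM and 3.5 ± 0.139 CPM in untreated WT cells (SD, n = 3 each). It was higher in Y691F than in WT cells with IgM (3.19-fold, log2 1.67 ± 0.109 SE, adjusted p = 6.65e-24) and among untreated cells (log2 1.13 ± 0.121 SE, adjusted p = 4.13e-13), in 3 of 3 libraries each time. DLGAP1-AS2 averaged 2.04 ± 0.0843 CPM in Y691F cells with IgM and 0.745 ± 0.0395 CPM in WT cells with IgM (log2 1.44 ± 0.259 SE, adjusted p = 2.31e-06). With IgM DLGAP1-AS1 rose in Y691F cells (log2 0.826, adjusted p = 3.17e-13) and was not called in WT cells (log2 0.288, adjusted p = 0.0607), where it was called without WT replicate 3 with IgM (adjusted p = 0.0441). The difference between its responses was itself called (log2 0.539, adjusted p = 0.0122), while that of DLGAP1-AS2 was not (log2 0.056, adjusted p = 0.952). The libraries keep the strand, per the labels' protocols, but the sources used here do not say whether the counting used it, so reads of DLGAP1 and of its antisense genes may not be fully separated where they overlap.

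**Figure D3:**
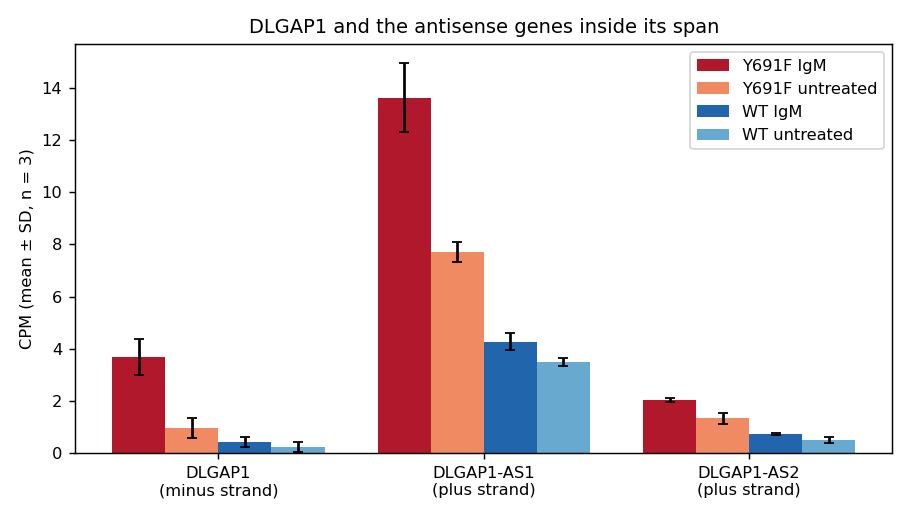
Mean levels (bars; CPM) ± SD (n = 3) of DLGAP1 and of the antisense genes DLGAP1-AS1 and DLGAP1-AS2, for Y691F cells with IgM, untreated Y691F cells, WT cells with IgM and untreated WT cells. DLGAP1-AS1 averages 13.6 CPM in Y691F cells with IgM and 4.27 CPM in WT cells with IgM, and DLGAP1 averages 3.69 CPM and 0.422 CPM in the same groups.

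The 8 genes did not share 1 pattern over the groups. LRRN3, NCAM1 and DLGAP1 were high in both Y691F groups, more so with IgM. ROBO1 was high in both but higher without IgM. SEMA6A and SEMA3F stood apart only in Y691F cells with IgM. RTN4R and VGF had the order Y691F with IgM, WT with IgM, WT untreated, Y691F untreated, with no overlap between neighbours. The root mean square difference between 2 centred log2 CPM profiles over the 12 libraries was smallest for LRRN3 and NCAM1 (0.604) and largest for ROBO1 and VGF (4.85).

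**Figure D4:**
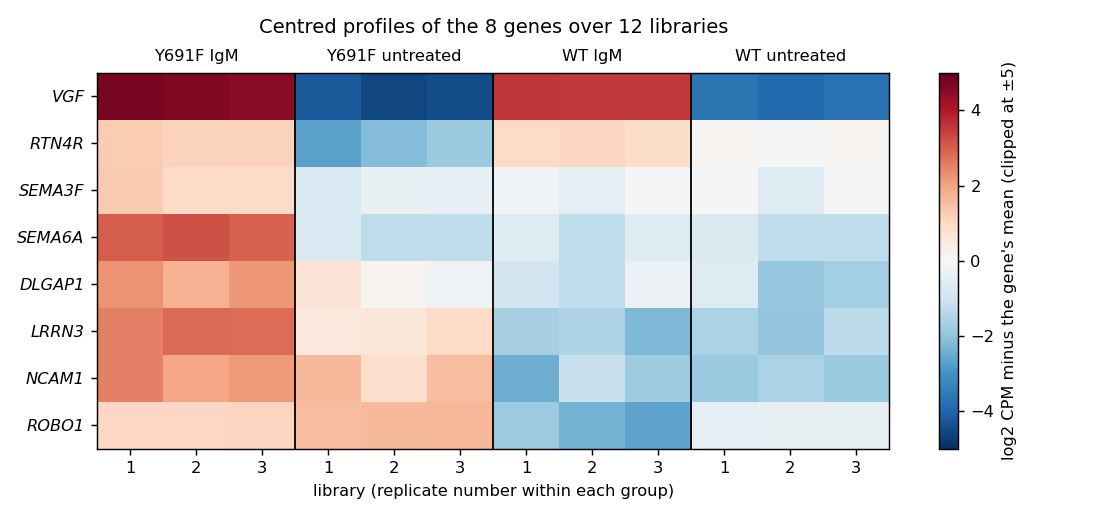
Centred log2 CPM (prior count 2) of the 8 genes in the 12 libraries, grouped as Y691F cells with IgM, untreated Y691F cells, WT cells with IgM and untreated WT cells. VGF and RTN4R are above their own mean in both groups with IgM, ROBO1 in both Y691F groups and SEMA6A in the 3 libraries of Y691F cells with IgM.

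Among tested genes with a mean of at least 1 CPM, the profile nearest to ROBO1 was that of CTNNA2 (0.460 by the same measure), then of BMP7 (0.478). BMP7, a secreted bone morphogenetic protein, averaged 8.01 ± 0.899 CPM in Y691F cells with IgM and 14.2 ± 0.673 CPM in untreated Y691F cells, against 1.53 ± 0.441 CPM in WT cells with IgM and 4.06 ± 0.376 CPM in untreated WT cells (SD, n = 3 each). SEMA3F was nearest to the interferon regulatory factors IRF1 (0.232) and IRF9 (0.253). IRF1 averaged 79.8 ± 2.64 CPM in Y691F cells with IgM and 32.1 ± 1.19 CPM in untreated Y691F cells, against 33.1 ± 1.55 CPM in WT cells with IgM and 28 ± 1.40 CPM in untreated WT cells. FST, which encodes the activin antagonist follistatin, was among the 2 nearest of SEMA6A (0.582), LRRN3 (0.640) and DLGAP1 (0.571). It averaged 32.4 ± 2.12 CPM in Y691F cells with IgM and 4.20 ± 0.531 CPM in untreated Y691F cells, against 2.14 ± 0.302 CPM in WT cells with IgM and 1.73 ± 0.124 CPM in untreated WT cells. SEMA6A was nearest to CPED1 (0.551), and NCMAP was nearest to DLGAP1 (0.556) and second to NCAM1 (0.761). RTN4R was nearest to LRRC32 (0.564) and ETV5 (0.574). VGF was nearest to DUSP4 (0.724), a MAP kinase phosphatase, and GEM (0.941), a small GTPase. GEM averaged 132 ± 2.19 CPM in Y691F cells with IgM and 1.45 ± 0.175 CPM in untreated Y691F cells, against 123 ± 4.06 CPM in WT cells with IgM and 0.732 ± 0.0863 CPM in untreated WT cells. These likenesses describe 12 libraries of 4 groups, and so mostly the 4 group means.

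The other genes of these pathways were counted in 11 lists of 142 genes, of which 59 had enough reads to be tested. In Y691F against WT cells with IgM 27 of the 59 were called higher and 11 lower, 45.8% and 18.6%, where 21.9% and 20.2% of all tested genes were. The median log2 fold change of the 59 was 0.128, and that of all genes was -0.0049. Ephrins and Eph receptors, contact cues between cells, had 4 of 7 tested genes higher and none lower. Genes of growth cone signalling had 10 of 17 higher and 5 lower, semaphorins 4 of 8 higher and 2 lower, and plexins and neuropilins 3 of 6 higher and 1 lower. Of the Slit and Robo list 2 of 3 were higher, while none of ROBO2, ROBO3 and ROBO4 passed the filter. Postsynaptic scaffolds had 3 of 9 higher and 1 lower, and neural adhesion molecules 1 of 3 higher. The netrin list and the Nogo receptor list had 1 of 2 lower each, neither of the 2 tested genes of the granin list was called, and no gene of the LRRN list passed the filter. Among list genes with a mean of at least 1 CPM and groups that did not overlap, the largest rises were those of SEMA3A, DPYSL2, DLG3 and CADM1. SEMA3A, a secreted repellent, averaged 1.18 ± 0.0411 CPM in Y691F cells with IgM and 0.435 ± 0.137 CPM in WT cells with IgM (log2 1.44, adjusted p = 0.00032). DPYSL2, which relays semaphorin signals to microtubules, averaged 47.9 ± 0.747 CPM in Y691F cells with IgM and 22.1 ± 0.107 CPM in WT cells with IgM (log2 1.11, adjusted p = 1.58e-31). The scaffold gene DLG3 (log2 0.949, adjusted p = 1.45e-09) and the adhesion gene CADM1 (log2 0.944, adjusted p = 2.36e-21) were also higher. Under the same limits the largest falls were those of SEMA7A (log2 -0.563, adjusted p = 4.71e-27), a membrane-anchored semaphorin at 168 ± 4.90 CPM in Y691F cells with IgM and 249 ± 6.27 CPM in WT cells with IgM, of SEMA3C (log2 -0.488, adjusted p = 0.00015), and of MICAL3 and ENAH (log2 -0.366 and -0.359).

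Among untreated cells 14 of the 59 were called higher and 13 lower in Y691F than in WT, with a median log2 fold change of 0.0235, where 15.1% of all tested genes were called higher and 16.1% lower. Among list genes with a mean of at least 1 CPM and groups that did not overlap, the scaffold genes DLG2 (log2 0.93, adjusted p = 1.87e-05) and DLGAP4 (log2 0.857, adjusted p = 1.63e-05), the kinase gene FES and the plexin gene PLXNC1 rose most. Under the same limits PLXNB2 fell most, to 45.3 ± 1.28 CPM in untreated Y691F cells, against 59.6 ± 2.29 CPM in untreated WT cells (log2 -0.394, adjusted p = 1.32e-10), followed by NTNG1, VASP and MICAL3.

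With IgM more genes of the lists fell than rose. In WT cells 18 of 59 rose and 32 fell, with a median of -0.278, where 38.4% of all tested genes were called higher and 38.5% lower. In Y691F cells 21 rose and 30 fell, with a median of -0.206, where 37.1% of all tested genes were called higher and 38.7% lower. The split over all genes depended on the scaling: with library totals alone it was 4642 higher and 6776 lower in WT cells, against 5809 and 5814 with TMM, and 4245 higher and 7265 lower in Y691F cells, against 5600 and 5853 with TMM. All 3 tested genes of the Slit and Robo list and both of the netrin list were called lower in WT cells. Of the Slit and Robo genes, SRGAP2 fell little in WT cells (log2 -0.0929, adjusted p = 0.0144). In Y691F cells SRGAP2 was called higher with IgM (log2 0.266, adjusted p = 7.11e-11). The other tested genes of that list averaged under 1 CPM over the 12 libraries. Semaphorins were split, with 3 of 8 higher and 4 lower in WT cells. SEMA7A rose to 249 ± 6.27 CPM in WT cells with IgM, against 20 ± 0.639 CPM in untreated WT cells (log2 3.63, adjusted p = 9.60e-78), and SEMA3C (log2 3.39) and the semaphorin receptor gene PLXNC1 (log2 3.10) rose as well. The postsynaptic scaffold gene HOMER1 rose by a log2 of 2.49 in WT cells and 2.51 in Y691F cells. Among list genes with a mean of at least 1 CPM and groups that did not overlap, the largest falls in WT cells were those of DPYSL2 (log2 -2.87), SEMA4A (log2 -2.53), RND1 (log2 -2.45) and DLG3 (log2 -2.29). In Y691F cells, under the same limits, they were those of DLG2 (log2 -2.99), SEMA4A (log2 -2.17), RND1 (log2 -1.77) and DPYSL2 (log2 -1.76). No granin relative of VGF was called in either: the 2 tested genes of that list, SCG5 and PCSK1N, had adjusted p = 0.361 and 0.148 in WT cells.

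For the difference between the IgM responses of Y691F and WT cells, 16 of the 59 genes were called higher and 7 lower, with a median log2 difference of 0.163, where 14.7% of all tested genes were called higher and 11.0% lower. With library totals alone the split over all genes turned to 1846 higher and 2134 lower, against 2217 and 1666 with TMM. Semaphorins held 3 higher and 2 lower of 8, growth cone signalling 7 higher and 2 lower of 17, and the postsynaptic scaffolds 1 higher and 3 lower of 9. The comparisons share libraries, so their counts are not independent of one another.

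**Figure D5:**
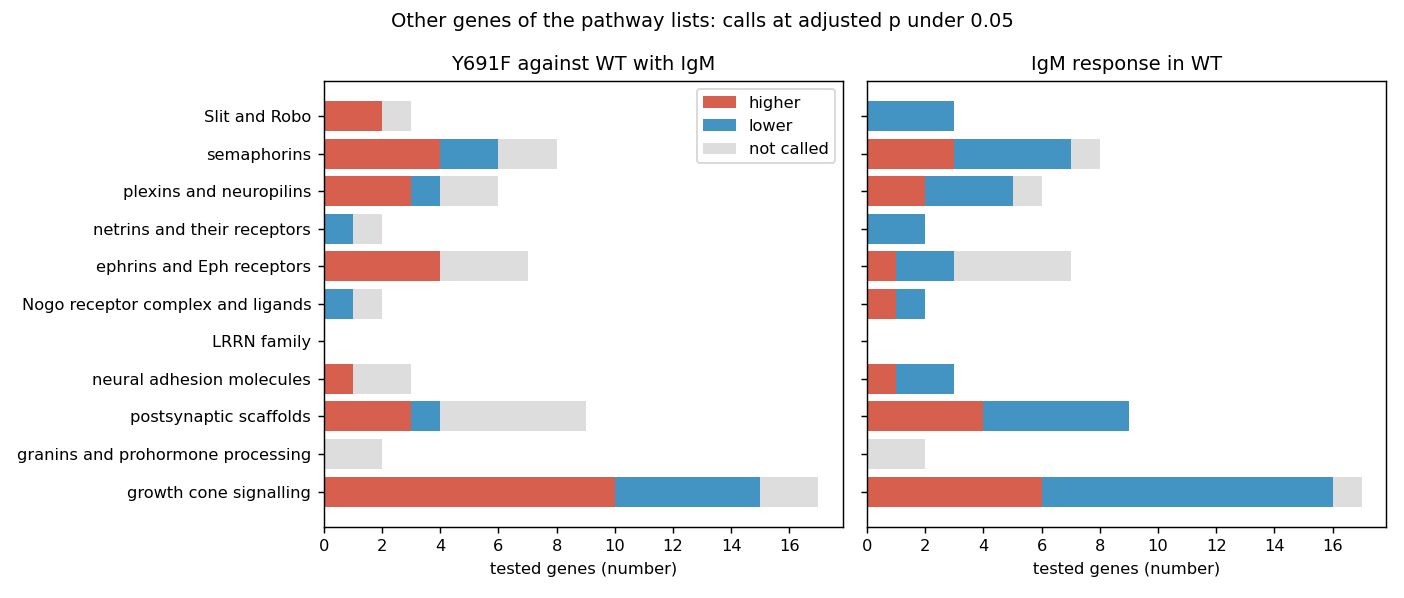
Number of tested genes called higher, called lower and not called (stacked bars, in that order) in each list of axon guidance and synaptic genes, at adjusted p under 0.05, for Y691F against WT cells with IgM (left) and for the IgM response in WT cells (right). In Y691F against WT cells with IgM the growth cone list has 10 of 17 genes higher and 5 lower. The ephrin and Eph list there has 4 of 7 higher and none lower. Of all tested genes, 21.9% were called higher and 20.2% lower in that comparison.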

How the data were processed

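PolyA+ RNA of 12 libraries was sequenced after strand marking with dUTP, per the labels. The authors deposited a read count and an RPKM value (reads scaled to gene length and library size) per gene; STAR 2.5.0b, DESeq2 and GRCh38 are named in the submitters' processing notes, while neither the counting program and its strand setting nor the annotation release is named there (not given in the sources used here). Counts were tested with edgeR 4.0.16 in R 4.3.3 (limma 3.58.1): TMM, filterByExpr by group, robust quasi-likelihood fit over 4 group coefficients and all 12 libraries, Benjamini-Hochberg adjustment over 15112 genes. The script was tested on simulated data. SE is the log2 fold change divided by the square root of F. For groups of 3 reads or fewer a ratio of summed reads with an exact 95% binomial interval is given instead, which covers counting error only, as do all depths stated here. RPKM was used only to compare levels between genes.

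Named are the 8 genes, and per comparison up to 4 list genes with the largest rise and 4 with the largest fall among those called, with a mean of at least 1 CPM and groups that do not overlap, the 2 nearest profiles per gene (prior count 2), and overlapping genes. The response of WT cells had been planned as a test for the 8 genes and is given without one, since the rule that chose them also draws on it. SCG5, PCSK1N and SRGAP2 were named after their values were seen. The 8 members, the pathway lists and the tests were chosen with earlier results of these data known. Alternatives were DESeq2 1.42.0 (size factors, Wald test), library totals alone, no filter, a replicate block and leaving out each library. Replicates of 1 group differed by more than sampling noise. Same-numbered libraries did not deviate together: 2 of 18 pairs correlated over 0.1 (median 0.00123), so the numbers were not taken as pairs.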

Additional observations from a re-analysis of the deposited data

Results flagged for a closer look

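Of the axon guidance and synaptic genes outside the 8, these differed in their IgM response between Y691F and WT cells by edgeR's interaction test (Benjamini-Hochberg adjusted over 15112 genes), the log2 difference being Y691F minus WT. The response was higher, that is less negative, in Y691F cells for DPYSL2 (1.10, adjusted p = 4.52e-26), DLG3 (0.959, adjusted p = 1.49e-07), CADM1 (0.708, adjusted p = 4.65e-10) and RND1 (0.682, adjusted p = 0.0111). Some of the other list genes called higher rose with IgM in both lines, and more so in Y691F cells. It was lower there for SEMA7A (-0.96, adjusted p = 7.21e-22), SEMA3C (-0.863, adjusted p = 0.0157), DLGAP4 (-0.51, adjusted p = 0.0435) and DLG2 (-1.26, adjusted p = 0.032). DPYSL2, DLG3, CADM1 and SEMA7A stayed called without any 1 of the 12 libraries. DLG2 and DLGAP4 were not called with DESeq2's Wald test (adjusted p = 0.0692 and 0.111) or with no filter on low counts (adjusted p = 0.0593 and 0.0896).

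The calls of the other 4 named genes each rested on single libraries. RND1 was not called without Y691F replicate 3 with IgM (adjusted p = 0.0659) or without WT replicate 1 with IgM (0.0807). SEMA3C was not called without untreated Y691F replicate 2 (0.0569) or untreated WT replicate 1 (0.0842). DLG2 was not called without Y691F replicate 1 with IgM (0.123), WT replicate 1 with IgM (0.338) or untreated WT replicate 2 (0.0646). DLGAP4 lost its call in 8 of the 12 leave-one-out fits, with adjusted p between 0.0552 and 0.223: without replicate 1 or 2 of Y691F cells with IgM, replicate 1 or 2 of untreated Y691F cells, replicate 2 or 3 of WT cells with IgM, or replicate 1 or 3 of untreated WT cells.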

How the results depend on the processing

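With library totals alone the median log2 fold change with IgM over all genes moved to -0.13 in WT cells and -0.18 in Y691F cells. There the log2 fold change of SEMA3F in WT cells was -0.115, and it was -0.0247 without replicate 1, -0.069 without replicate 3 of WT cells with IgM and -0.172 without replicate 2 of untreated WT cells, with a range of -0.172 to 0.137 over the fits that left out 1 library. That of NCAM1 ranged from -0.997 (without WT replicate 2 with IgM) to 0.724. The number of list genes called lower for the difference between the IgM responses was 7, against 4 with DESeq2's Wald test and 4 with no filter on low counts, and 4 to 7 when 1 library was left out. With the replicate number as a block that count was 7, and in Y691F against WT cells with IgM 27 were higher and 11 lower; the block turned no direction and moved no count by over 1.5 times. Depth limits SEMA6A, LRRN3, NCAM1 and DLGAP1 in WT cells, where libraries held 0 to 10 reads.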
